A study of Mus musculus with 32 samples.

Results

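The Cyp3a family is the mouse set of cytochrome P450 genes whose symbols begin with Cyp3a, here taken as Cyp3a11, Cyp3a13, Cyp3a16, Cyp3a25, Cyp3a41a, Cyp3a41b, Cyp3a44 and Cyp3a59. They were picked by symbol and make up 8 of the 41585 gene entries in each count table. CYP3A enzymes sit in the membrane of the hepatocyte endoplasmic reticulum, where they oxidise steroids, bile acids and many drugs with electrons from P450 oxidoreductase (Por). Their genes are known to respond to the xenobiotic receptors PXR (Nr1i2) and CAR (Nr1i3), and several mouse members are known to be transcribed mainly in females.

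The data are liver RNA-seq libraries from wild-type (WT) mice and from Cyp2b-null mice of 1 background, C57BL/6 in the labels and C57Bl/6J in the methods. The Cyp2b-null mice lack Cyp2b9, Cyp2b10 and Cyp2b13 after a CRISPR deletion. Females and males of each genotype, 10 weeks old at the start, ate a normal diet (ND) or a choline-deficient, amino acid-defined diet high in fat (CDAHFD, 62% fat and 0.1% methionine) for 8 weeks. The 8 groups held 4 libraries each, 32 in all, with females in one table of 16 and males in the other, so sex and table cannot be told apart. WT mice were purchased and Cyp2b-null mice came from a line made earlier, so genotype and the source of the mice cannot be told apart either. Total counts ran from 2906411 to 10166959 per library.

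The deleted genes were read first. Cyp2b9 had 3076, 1371, 1764 and 3530 counts in WT females on ND and 4, 8, 5 and 5 in Cyp2b-null females on ND. On CDAHFD it had 1151, 768, 790 and 683 counts in WT females and 4, 7, 2 and 4 in Cyp2b-null females. Every WT female library was far above every Cyp2b-null female library. In males the gene separated the genotypes only on CDAHFD, with 364, 277, 118 and 268 counts in WT and 3, 6, 7 and 2 in Cyp2b-null. On ND the counts were 0, 7, 4 and 15 in WT males and 18, 7, 11 and 4 in Cyp2b-null males, which overlapped.

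Cyp2b10 had 391, 190, 213 and 376 counts in WT females on ND, 66, 30, 21 and 60 in WT females on CDAHFD, and 1, 2, 6 and 1 and 1, 1, 0 and 0 in the Cyp2b-null females on ND and CDAHFD. In males it had 33, 89, 97 and 50 counts in WT on ND and 9, 1, 1 and 2 in Cyp2b-null on ND. On CDAHFD the male counts were 0, 3, 5 and 7 in WT and 0, 6, 2 and 0 in Cyp2b-null, which overlapped. Cyp2b13 had 1750, 878, 1253 and 2351 counts in WT females on ND and 977, 747, 470 and 508 in WT females on CDAHFD. In Cyp2b-null females Cyp2b13 had 0, 0, 0 and 0 on ND and 1, 0, 1 and 1 on CDAHFD. Among males Cyp2b13 had 0, 0, 0 and 0 in WT on ND, 2, 6, 2 and 2 in WT on CDAHFD, 0, 2, 0 and 0 in Cyp2b-null on ND and 0, 0, 0 and 0 in Cyp2b-null on CDAHFD. On ND it could not tell the male genotypes apart, and on CDAHFD every WT male lay above every Cyp2b-null male by a few counts. No library went against its genotype label, and Xist and Ddx3y counts matched the labelled sex of each library.

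A few libraries stood apart. Replicate 3 of the Cyp2b-null females on CDAHFD lay at -61 on the second principal component of the female table, away from the other replicates of its group. On the second component of the male table, WT replicates 2 and 4 on ND lay at 33 and 36. WT replicates 1 and 3 on ND lay at -14 and -10 there. Replicate 1 of the WT males on CDAHFD lay at -27 on the first component, and the others of its group at -53 to -61. Replicate 4 of the WT females on CDAHFD was high for Cyp3a41a, Cyp3a41b and Cyp3a44. Replicate 1 of the WT females and replicate 2 of the Cyp2b-null females, both on ND, were low for Cyp3a16, Cyp3a41a and Cyp3a41b. For some of the results that rest on these libraries, the value without them is given as well. The labels do not say that each library came from a separate animal or how animals were housed, so the p-values measure the spread between libraries as deposited.

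Levels are CPM, read counts scaled to a common library size with TMM factors, listed for replicates 1 to 4 in order. Changes are log2 ratios from the edgeR quasi-likelihood test, with p-values adjusted by the Benjamini-Hochberg method over all genes tested. The diet comparison asks how each member's RNA differed between CDAHFD and ND within a genotype and sex. In bulk liver, fewer cells of a type and less RNA per cell cannot be told apart.

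**Figure D1:**
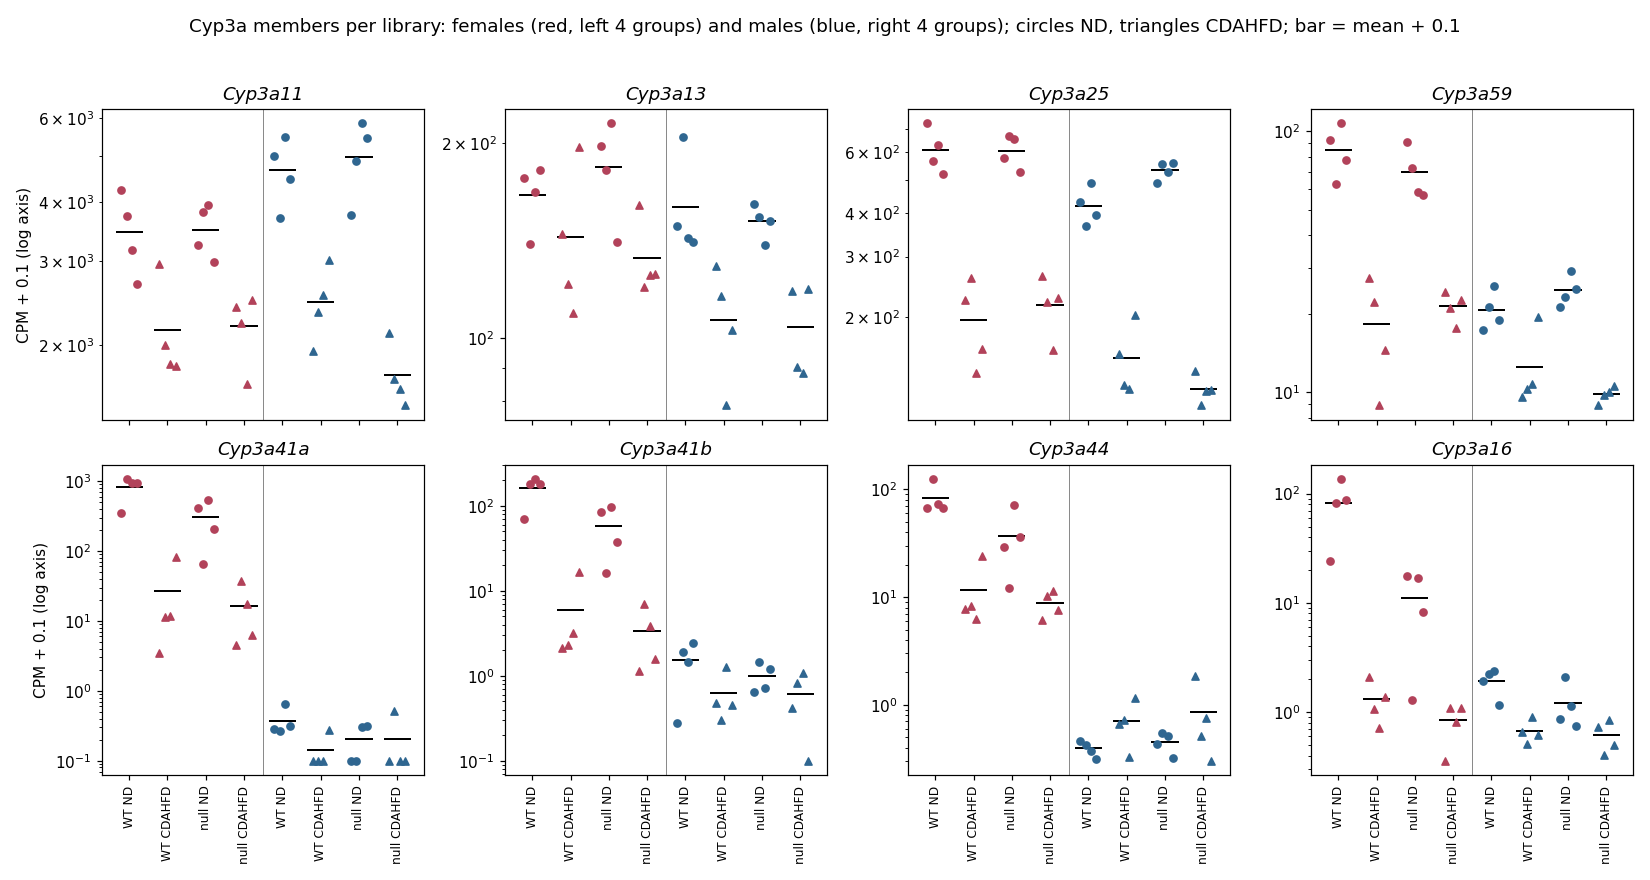
Level of each Cyp3a member in each of the 32 libraries, as CPM plus 0.1 on a log axis, with females in red, males in blue, ND as circles, CDAHFD as triangles and the group mean as a bar. The 4 female-enriched members of the lower row lay under 3 CPM in every male library.

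Cyp3a11 encodes the main drug-oxidising CYP3A enzyme of the adult mouse liver. It was the most abundant member per kb of transcript in all 8 groups, and its level was lower on CDAHFD in each genotype and sex. In WT females it stood at 4243, 3729, 3172 and 2682 CPM on ND and 2953, 2001, 1826 and 1807 on CDAHFD. These groups overlapped, because replicate 1 on CDAHFD lay above the lowest ND library. The change was log2 -0.69 (SE 0.180, adjusted p 0.00754), and -0.88 without that replicate.

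Cyp2b-null females had 3250, 3807, 3947 and 2995 CPM of Cyp3a11 on ND and 2407, 2224, 1651 and 2490 on CDAHFD, with no overlap. The change was log2 -0.67 (SE 0.180, adjusted p 0.00737), and -0.56 without replicate 3 on CDAHFD. With library sizes not adjusted by TMM, Cyp3a11 was not called in females, at log2 -0.37 (adjusted p 0.139) in WT and -0.41 (adjusted p 0.0998) in Cyp2b-null. WT males had 4991, 3704, 5478 and 4475 CPM on ND and 1937, 2344, 2551 and 3015 on CDAHFD, and Cyp2b-null males had 3759, 4869, 5855 and 5448 and 2116, 1695, 1616 and 1490. Neither pair of male groups overlapped. The male changes for Cyp3a11 were log2 -0.92 (SE 0.175, adjusted p 3.27e-04) in WT and log2 -1.53 (SE 0.177, adjusted p 8.06e-07) in Cyp2b-null mice.

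Cyp3a13 is the one member that lies outside the main gene cluster, and it is also known from the intestine. Its changes were the smallest of the family. It stood at 177, 140, 168 and 182 CPM in WT females on ND and 145, 121, 109 and 197 on CDAHFD. The groups overlapped, with replicate 4 on CDAHFD above every ND library, and the change did not pass the threshold at log2 -0.22 (SE 0.172, adjusted p 0.398). With library sizes not adjusted by TMM it turned direction, to log2 0.10 (adjusted p 0.692). In Cyp2b-null females it had 198, 181, 214 and 141 CPM on ND and 160, 120, 125 and 126 on CDAHFD, which overlapped. That change, log2 -0.47 (SE 0.172, adjusted p 0.0450), was near the threshold, and 6 of 8 fits that left out 1 library took it off the called list. Without the TMM adjustment it was not called, at log2 -0.21 (adjusted p 0.388). In WT males Cyp3a13 stood at 149, 204, 143 and 141 CPM on ND and 129, 116, 78.8 and 103 on CDAHFD, and in Cyp2b-null males at 161, 154, 139 and 151 and 118, 90.1, 88.2 and 119. Neither pair overlapped, with changes of log2 -0.58 (SE 0.154, adjusted p 0.00602) in WT and log2 -0.55 (SE 0.154, adjusted p 0.00771) in Cyp2b-null males. With library sizes not adjusted by TMM neither was called, at log2 -0.20 (adjusted p 0.221) and -0.19 (adjusted p 0.232).

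Cyp3a25 was present in both sexes and was the only one of the 4 members tested in both sexes that fell without overlap in all 4 diet comparisons. WT females had 727, 565, 629 and 519 CPM on ND and 225, 259, 138 and 162 on CDAHFD. Every CDAHFD library lay below every ND library. WT males had 432, 366, 491 and 396 CPM on ND and 156, 127, 124 and 203 on CDAHFD, again with no overlap. The changes were log2 -1.64 (SE 0.187, adjusted p 2.08e-06) in WT females and log2 -1.46 (SE 0.144, adjusted p 1.32e-07) in WT males.

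In Cyp2b-null mice Cyp3a25 stood at 576, 668, 655 and 528 CPM in females on ND and 263, 221, 161 and 227 on CDAHFD. Cyp2b-null males had 488, 557, 525 and 561 on ND and 140, 111, 122 and 124 on CDAHFD. Neither pair overlapped. The changes in Cyp3a25 were log2 -1.48 (SE 0.186, adjusted p 6.09e-06) in these females, -1.36 without replicate 3 on CDAHFD, and log2 -2.10 (SE 0.147, adjusted p 1.38e-09) in these males.

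Cyp3a59 is close to Cyp3a25 in sequence. It was higher in females than in males on ND, and in WT mice this sex difference was smaller on CDAHFD. WT females had 92.2, 62.7, 107 and 77.4 CPM on ND and 27.4, 22.1, 8.81 and 14.5 on CDAHFD, with no overlap. WT males had 17.2, 21.1, 25.5 and 18.9 on ND and 9.52, 10.2, 10.7 and 19.4 on CDAHFD, where replicate 4 lay inside the ND range. The changes were log2 -2.23 (SE 0.252, adjusted p 1.80e-06) in females and log2 -0.74 (SE 0.197, adjusted p 0.00639) in males, and -1.03 in males without that replicate. The WT male change was not called without the TMM adjustment, at log2 -0.33 (adjusted p 0.244). Cyp2b-null females had 91.3, 72.3, 58.5 and 56.7 CPM on ND and 24.1, 20.9, 17.5 and 22.5 on CDAHFD, and Cyp2b-null males had 21.1, 23, 29.2 and 24.8 and 8.86, 9.64, 9.95 and 10.5. Neither pair overlapped, and the changes were log2 -1.71 (SE 0.246, adjusted p 2.52e-05) in females and log2 -1.33 (SE 0.197, adjusted p 1.83e-05) in males.

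Cyp3a41a and Cyp3a41b are near-identical copies. Their transcripts differ at 6 positions, and the settings for reads that map more than once were not stated, so how the counts divide between the copies is uncertain. Cyp3a41a stood at 344, 1082, 939 and 926 CPM in WT females on ND and 3.35, 11.2, 11.7 and 81.4 on CDAHFD. Replicate 1 was the lowest on ND and replicate 4 the highest on CDAHFD, and the groups did not overlap. The change was log2 -4.89 (SE 0.801, adjusted p 1.10e-04), and -6.55 without replicate 4 on CDAHFD. Cyp2b-null females had 409, 64.9, 535 and 208 CPM on ND and 4.41, 37.6, 17.5 and 6.09 on CDAHFD, also without overlap, a change of log2 -4.19 (SE 0.789, adjusted p 4.26e-04). It was -5.00 without replicate 2 of those on CDAHFD.

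Cyp3a41b moved in the same direction at a lower level. It had 69.2, 181, 209 and 183 CPM in WT females on ND and 2.01, 2.18, 3.07 and 16.4 on CDAHFD, with no overlap. Cyp2b-null females had 83.5, 16.2, 96.7 and 37 on ND and 1.04, 6.90, 3.79 and 1.49 on CDAHFD, also with no overlap. The change was log2 -4.64 (SE 0.609, adjusted p 9.95e-06) in WT females, -6.02 without replicate 4 on CDAHFD, and log2 -4.07 (SE 0.646, adjusted p 7.37e-05) in Cyp2b-null females, -4.72 without replicate 2 of those on CDAHFD. With both copies summed into 1 entry, the change was log2 -4.87 (adjusted p 9.74e-05) in WT females and -4.18 (adjusted p 3.61e-04) in Cyp2b-null females. Cyp3a41a held 83.6% of the 17901 and 3520 counts of Cyp3a41a and Cyp3a41b in females (95% exact interval 83.1 to 84.1%). In males it held 13.7% of 14 and 88 counts (7.71 to 22%), intervals that cover counting error only.

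Cyp3a44 was likewise almost confined to females. It stood at 67.4, 126, 72.5 and 66.5 CPM in WT females on ND and 7.58, 8.25, 6.15 and 24.2 on CDAHFD. The groups did not overlap, and replicate 4 on CDAHFD was again the highest of its group. The change was log2 -2.79 (SE 0.427, adjusted p 5.31e-05), and -3.49 without that library. In Cyp2b-null females the levels were 29.1, 12, 71.8 and 35.8 CPM on ND and 5.97, 10.2, 11.2 and 7.46 on CDAHFD. Replicate 2 on ND came close to the CDAHFD libraries but stayed above them, and the change was log2 -2.04 (SE 0.440, adjusted p 0.00142).

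Cyp3a16 is known mainly from the livers of young mice. It was the only member called between genotypes. WT females on ND had 24.2, 81.8, 137 and 88.1 CPM and Cyp2b-null females on ND had 17.6, 1.20, 16.8 and 8.10. Every Cyp2b-null library lay below every WT library. On CDAHFD the levels were 2.01, 0.970, 0.615 and 1.29 CPM in WT females and 0.260, 0.986, 0.721 and 0.995 in Cyp2b-null females, which overlapped. These CDAHFD values rest on 1 to 9 counts per library. The diet changes of Cyp3a16 were log2 -6.04 (SE 0.614, adjusted p 4.38e-07) in WT and log2 -3.62 (SE 0.727, adjusted p 7.66e-04) in Cyp2b-null females. They were -6.36 without WT replicate 1 on ND and -4.05 without Cyp2b-null replicate 2 on ND.

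The genotype comparison asks whether loss of the Cyp2b genes went with other levels of the members. In females on ND, 1 of 8 members was called, against 0.0756% of all genes tested. This was Cyp3a16, lower in Cyp2b-null mice at log2 -3.02 (SE 0.478, adjusted p 0.00658). Cyp3a16 passed the low-count filter through females on ND, where it is high, so its call is not independent of that filter. The change was -2.59 (adjusted p 0.00912) without replicate 2 of the Cyp2b-null group. Over all fits that left out 1 library its adjusted p was at most 0.0406, and it missed the threshold at an adjusted p of 0.0754 when only these 8 libraries were fitted. Cyp3a41a, Cyp3a41b and Cyp3a44 had lower means in Cyp2b-null females, with log2 -1.44, -1.49 and -1.19, but their groups overlapped and none passed (adjusted p 0.863, 0.679 and 0.640).

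No member was called in the other genotype comparisons. In females on CDAHFD it was 0 of 8 members against 0.0227% of all genes, with 0 at an unadjusted p under 0.05 and 0 by DESeq2. Of 13226 genes, 771 were under that p and DESeq2 called 5. In males on ND it was 0 of 4 members tested against 0.0371%, with 1 at an unadjusted p under 0.05 and 0 by DESeq2. Of 13460 genes, 1112 were under that p and DESeq2 called 72. In males on CDAHFD it was 0 of 4 against 0.0297%, with 2 at an unadjusted p under 0.05 and 0 by DESeq2. Of 13460 genes, 487 were under that p and DESeq2 called 4. Cyp3a11 was among those 2 members, at log2 -0.51 (SE 0.174), with overlapping groups.

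The difference between the diet changes of the genotypes was tested as an interaction, which shares its libraries with the diet comparisons. In females 0 of 8 members were called against 0% of all genes, with 0 at an unadjusted p under 0.05 and 0 by DESeq2. Of 13226 genes, 830 were under that p and DESeq2 called 2. Cyp3a16 had the lowest p of the members in females, a difference of log2 2.43 (SE 1.19, adjusted p 0.760). In males 0 of 4 members were called against 0.00743%, with 3 at an unadjusted p under 0.05 and 0 by DESeq2. Of 13460 genes, 817 were under that p and DESeq2 called 3. Cyp3a25 differed by log2 -0.64 (SE 0.201, adjusted p 0.633) and Cyp3a11 by log2 -0.61 (SE 0.245, adjusted p 0.709).

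Counted by comparison, the diet lowered 7 of 8 members in WT females, where 24.1% of all genes tested were called and 10.2% were called lower. In Cyp2b-null females it lowered 8 of 8, against 30.8% called and 13.9% called lower. Without replicate 3 on CDAHFD, 7 of the 8 were called there. Both female counts include Cyp3a16, which passed the low-count filter through females on ND, where it is high. In WT males the diet lowered 4 of 4 members tested, against 33% called and 15% called lower. It lowered 2 of 4 without the TMM adjustment, where Cyp3a13 and Cyp3a59 were not called. In Cyp2b-null males it lowered 4 of 4 tested, against 37.4% called and 17.1% called lower. No member was called higher. The median log2 change of the members tested was -2.51 in WT females, -1.88 in Cyp2b-null females, -0.83 in WT males and -1.43 in Cyp2b-null males, beside medians of -0.00, 0.03, -0.02 and -0.01 over all genes.

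**Figure D2:**
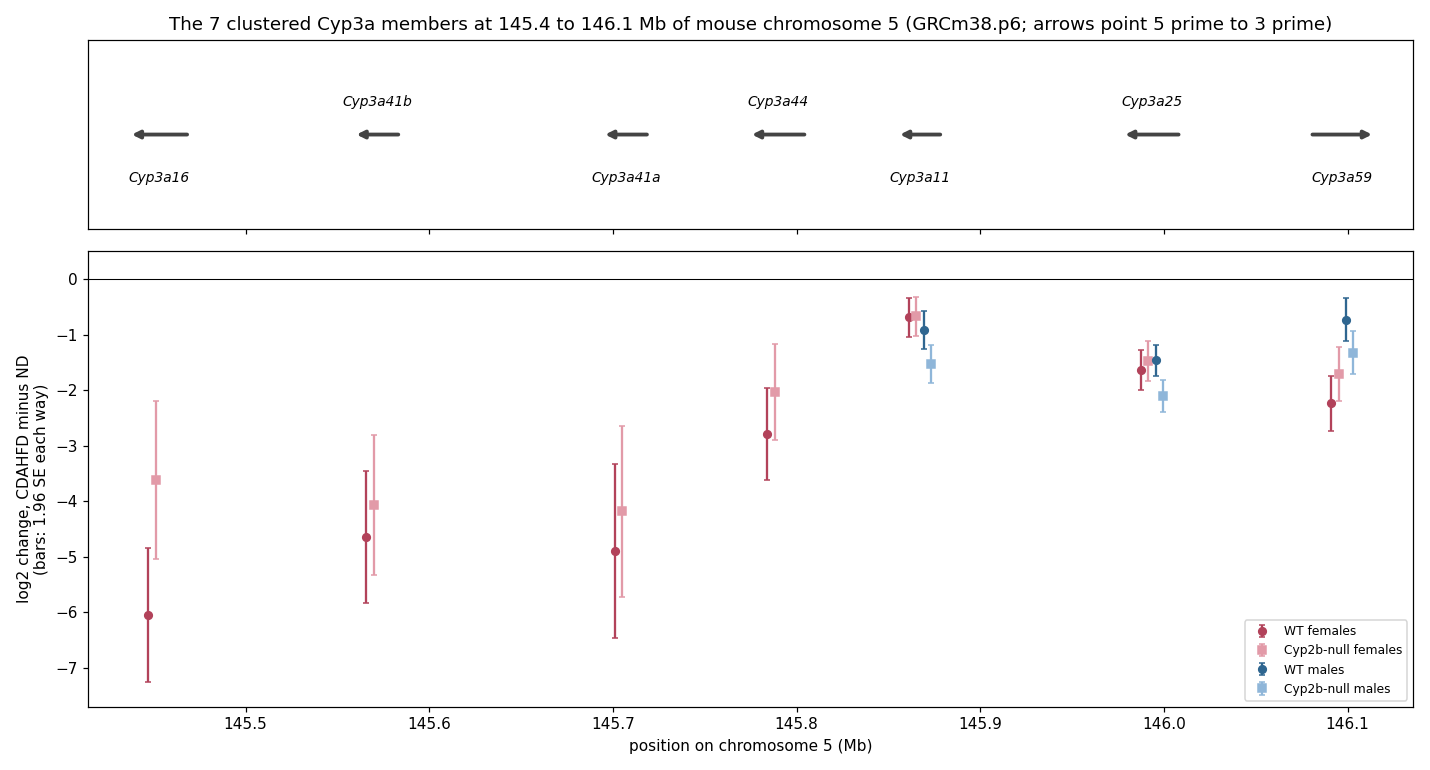
The 7 clustered Cyp3a members along mouse chromosome 5 in Mb (upper panel, arrows point 5 prime to 3 prime) and their log2 change with CDAHFD in each genotype and sex (lower panel, bars show an approximate 95% interval). Every change drawn lies below 0, and the male points cover the 3 clustered members that passed the low-count filter in males.

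Cyp3a16, Cyp3a41a, Cyp3a41b and Cyp3a44 fell below the low-count filter in males and were not tested there for diet or genotype in the reported fits. In WT males on ND, Cyp3a16 had 10, 13, 17 and 5 counts, Cyp3a41a 1, 1, 4 and 1, Cyp3a41b 1, 11, 10 and 11 and Cyp3a44 2, 2, 2 and 1. A further family gene outside the 8, Cyp3a57, had 0 to 23 counts per library and was below the filter in both tables.

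The sexes were compared in a fit to all 32 libraries. On ND, 6 of 8 members were higher in WT females than in WT males, against 17.8% of all genes called and 9.45% called higher. Among the 6, Cyp3a16, Cyp3a41a, Cyp3a41b and Cyp3a44 were below the filter in the male table. They entered this fit through the female libraries, where they are high. Their part in the count is therefore not independent of the sex difference. The female excess was log2 11.31 for Cyp3a41a, 7.99 for Cyp3a44, 6.78 for Cyp3a41b, 5.40 for Cyp3a16 and 1.99 for Cyp3a59. The male side of Cyp3a41a is 1 to 4 counts per library, and with Cyp3a41a and Cyp3a41b summed the excess was log2 9.13 (adjusted p 7.17e-10). Cyp3a25 was higher in females by only log2 0.50 (SE 0.168, adjusted p 0.0370), and 5 of 8 fits that left out 1 library took it off the called list. With a replicate block Cyp3a25 was not called, at log2 0.56 (adjusted p 0.122). Blocks lie within a sex, so that fit sets females at the level of replicate 1 against males at the level of replicate 4. It therefore does not measure the mean sex difference. Cyp3a11 was at log2 -0.47 (SE 0.180, adjusted p 0.0648), and DESeq2 called it lower in females at -0.48 (adjusted p 0.0421). On CDAHFD, 11% of all genes were called and 5.12% were called higher in females. Of the 8 members, 3 were called higher in females, namely Cyp3a41a, Cyp3a41b and Cyp3a44. All 3 are among the members that entered the fit through the female libraries. Cyp3a41b went from log2 3.31 (SE 0.842, adjusted p 0.0105) to 1.93 (adjusted p 0.216) without female replicate 4, which ended its call. In the replicate block fit, which does not measure the mean sex difference, neither Cyp3a41a nor Cyp3a41b was called (adjusted p 0.134 and 0.251). Summed into 1 entry, Cyp3a41a and Cyp3a41b were called at log2 5.61 (adjusted p 2.16e-04).

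The diet change itself differed between the sexes for 2 of 8 members in WT mice, against 0.97% of all genes. Cyp3a59 fell further in females, with a difference of log2 -1.52 (SE 0.335, adjusted p 0.0164), and so did Cyp3a16, with log2 -4.47 (SE 1.12, adjusted p 0.0390). For Cyp3a16 the male side of the difference rests on 2 to 17 counts per library, and the female side on CDAHFD on 3 to 9. Cyp3a16 passed the filter through females on ND, where it is high, so its call is not independent of that filter. In 11 of 16 fits that left out 1 library Cyp3a16 was not called. For Cyp3a59 this was 1 of 16. With only these groups fitted neither Cyp3a59 nor Cyp3a16 was called (adjusted p 0.0811 and 0.0540). Cyp3a44, not called here (adjusted p 0.161), was called by DESeq2 (adjusted p 0.00813) and without female replicate 4 on CDAHFD (adjusted p 0.0329). In Cyp2b-null mice 0 of 8 members were called, against 3.4% of all genes, with 5 at an unadjusted p under 0.05 and 3 by DESeq2. Of 14020 genes, 2690 were under that p and DESeq2 called 701. Cyp3a11 was the nearest member at log2 0.83 (SE 0.254, adjusted p 0.0618).

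Levels of different members were compared per kb of transcript. In WT females on ND the mean order was Cyp3a11 at 1475 CPM per kb, Cyp3a41a at 399, Cyp3a25 at 305 and Cyp3a41b at 77.7. Below these came Cyp3a13 at 56.3, Cyp3a16 at 47.8, Cyp3a59 at 42.6 and Cyp3a44 at 42.3. Between neighbours in this order, Cyp3a11 lay clear of Cyp3a41a and Cyp3a25 lay clear of Cyp3a41b, and the other neighbours overlapped. The places of Cyp3a41a and Cyp3a41b depend on how counts were divided between these near-identical copies, which is uncertain. In WT males on ND the order was Cyp3a11 at 1989, Cyp3a25 at 211, Cyp3a13 at 53.9 and Cyp3a59 at 10.4, with no overlap between neighbours. The remaining 4 members had means of at most 1.05 CPM per kb in that group.

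The summed level of the 8 members, given without a test, was 5745, 5966, 5433 and 4724 CPM in WT females on ND and 3365, 2426, 2104 and 2304 on CDAHFD. In WT males it was 5591, 4301, 6142 and 5034 on ND and 2234, 2599, 2767 and 3343 on CDAHFD. Neither pair overlapped. The mean on CDAHFD was 46.6% of the ND mean in WT females, 54.4% in Cyp2b-null females, 51.9% in WT males and 34.6% in Cyp2b-null males. Without Cyp3a11 these were 20.04%, 31.6%, 45.3% and 33.7%. Cyp3a11 held a mean of 62.9% of the sum in WT females on ND and 83.9% on CDAHFD, and 88.4% and 89.8% in WT males.

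Hepatocyte markers moved with the diet too. Of 8 markers, 5 were lower and 0 higher in WT females, and 6 lower and 1 higher in WT males. Without the TMM adjustment it was 1 higher and 4 lower in WT females and 1 higher and 1 lower in WT males. Their summed level, with Alb the most abundant and none at 0, was 153311, 219651, 176575 and 166256 CPM in WT females on ND and 129661, 113566, 125066 and 107101 on CDAHFD. In WT males it was 151750, 139666, 145283 and 155915 on ND and 133918, 122221, 82891 and 93988 on CDAHFD. As a share of this sum, a scale chosen after seeing the data, Cyp3a11 on CDAHFD was 91.3% of its ND mean in WT females and 76.7% in WT males, with overlap in both. On the same scale Cyp3a11 was 93.9% in Cyp2b-null females, with overlap, and 49.1% in Cyp2b-null males, without. Cyp3a25 on that scale was 47.4%, 53.4%, 51.6% and 33.1% of its ND mean in WT females, Cyp2b-null females, WT males and Cyp2b-null males, without overlap in any.

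With diet, 13.9% of all genes were called higher in WT females, 16.9% in Cyp2b-null females, 18% in WT males and 20.3% in Cyp2b-null males. Markers of recruited macrophages rose, 6 of 6 tested in females and 6 of 6 in males of each genotype. Their summed level was 60.8, 47.5, 74.9 and 50 CPM in WT females on ND and 326, 455, 531 and 509 on CDAHFD, and 38, 15.8, 41.6 and 26.2 and 372, 607, 884 and 656 in WT males. In Cyp2b-null mice it was 58.9, 57.5, 51.5 and 66.8 on ND and 489, 661, 435 and 447 on CDAHFD in females, and 26.2, 28.6, 42.2 and 32.5 and 563, 679, 1168 and 799 in males. Gpnmb was the most abundant of them and Trem2 had 0 counts in every library. The part of the marker changes in the members' changes was not tested.

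Several other lists of cell markers moved as well, and are given here for WT mice. T cell and B cell markers had 0 called, with at most 1 gene of each list tested, and no kidney marker was tested. The 1 exocrine pancreas marker tested, Cela1, was not called in WT females. Cela1 was called lower in WT males, log2 -0.84 (adjusted p 0.0153). Stellate cell and fibroblast markers had 5 higher and 0 lower of 8 tested in WT females and 5 higher and 0 lower of 8 tested in WT males. Their sum, with Dcn the most abundant, was 285, 241, 337 and 272 CPM in WT females on ND, 406, 472, 573 and 499 in WT females on CDAHFD, 186, 132, 181 and 157 in WT males on ND and 311, 330, 449 and 459 in WT males on CDAHFD. Neutrophil markers had 3 higher and 0 lower of 3 tested in WT females and 3 higher and 0 lower of 3 tested in WT males, with Csf3r the most abundant and Ly6g at 0. They summed to 4.40, 3.12, 3.05 and 1.73 CPM in WT females on ND, 11.4, 17.2, 12.5 and 18.9 in WT females on CDAHFD, 0.543, 2.76, 0.943 and 1.29 in WT males on ND and 6.90, 11.1, 15.2 and 13.3 in WT males on CDAHFD. Kupffer cell markers had 3 higher and 2 lower of 7 tested in WT females and 5 higher and 1 lower of 7 tested in WT males, with Cd5l the most abundant, and summed to 499, 590, 361 and 380 CPM in WT females on ND, 531, 592, 521 and 421 in WT females on CDAHFD, 213, 203, 305 and 152 in WT males on ND and 346, 715, 638 and 567 in WT males on CDAHFD. Cholangiocyte markers had 2 higher and 0 lower of 5 tested in WT females and 2 higher and 0 lower of 5 tested in WT males, with Spp1 the most abundant and also listed among the recruited macrophage markers, and summed to 44.4, 37.8, 62 and 41.7 CPM in WT females on ND, 115, 184, 156 and 212 in WT females on CDAHFD, 29.9, 22.6, 30.7 and 31.6 in WT males on ND and 97.6, 100, 243 and 179 in WT males on CDAHFD. Endothelial markers had 0 higher and 2 lower of 6 tested in WT females and 1 higher and 1 lower of 6 tested in WT males. Clec4g was the most abundant over all libraries, and Stab2 in males. The endothelial markers summed to 273, 237, 239 and 219 CPM in WT females on ND and 176, 178, 223 and 158 on CDAHFD. In WT males the sum was 160, 196, 224 and 155 on ND and 122, 210, 153 and 174 on CDAHFD. Intestine markers had 1 higher and 0 lower of 2 tested in WT females, where Fabp2 was called, and 0 higher and 0 lower of 2 tested in WT males, with Fabp2 the most abundant, and summed to 57.4, 70.1, 56.9 and 40.2 CPM in WT females on ND, 148, 131, 92.6 and 178 in WT females on CDAHFD, 63.5, 54.6, 65 and 41 in WT males on ND and 68.7, 61, 68.9 and 81.4 in WT males on CDAHFD. Adipocyte markers had 1 higher and 0 lower of 1 tested in WT females and 1 higher and 0 lower of 1 tested in WT males, the gene called being Cidec, with Lep at 0, and summed to 1.40, 1.95, 3.39 and 1.90 CPM in WT females on ND, 27.2, 19.9, 11.1 and 52.4 in WT females on CDAHFD, 3.98, 1.63, 1.62 and 1.93 in WT males on ND and 15.1, 19.6, 31.7 and 18.7 in WT males on CDAHFD.

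Genes that act on the members or with them came from a list of 28 regulators and redox partners. With diet, 0 higher and 10 lower of 27 tested (median log2 -0.30) were called in WT females and 0 higher and 10 lower of 27 tested (median log2 -0.45) in WT males, beside 24.1% and 33% of all genes. These counts depend on scaling, with 0 higher and 2 lower in WT females and 3 higher and 3 lower in WT males when library sizes were not adjusted by TMM. PXR (Nr1i2) changed by log2 -0.57 (adjusted p 0.0232) in WT females and log2 -0.32 (adjusted p 0.0550) in WT males. CAR (Nr1i3) changed by log2 -0.46 (adjusted p 0.0660) and log2 -0.33 (adjusted p 0.319), and their partner Rxra by log2 -0.06 (adjusted p 0.793) and log2 0.02 (adjusted p 0.895). The liver factor Hnf4a fell in both sexes, log2 -0.58 (adjusted p 0.0114) and log2 -0.74 (adjusted p 7.13e-05). The electron donor Por was called lower in WT females, log2 -0.73 (adjusted p 0.00642). Its groups overlapped there, with 356 CPM in replicate 2 on CDAHFD and 339 CPM in replicate 1 on ND. Por was not called in WT males, log2 0.02 (adjusted p 0.957), and no test of a difference between the sexes is given for it. Cyb5a changed by log2 -0.30 (adjusted p 0.125) in WT females and log2 -0.45 (adjusted p 0.0942) in WT males.

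Among other genes known to respond to PXR or CAR, 4 higher and 9 lower of 22 tested (median log2 -0.15) were called in WT females and 6 higher and 4 lower of 20 tested (median log2 -0.05) in WT males. In WT females Cyp2c29 changed by log2 -2.09 (adjusted p 4.58e-08), Ces2a by log2 -2.90 (adjusted p 4.37e-09) and Gsta1 by log2 3.62 (adjusted p 4.37e-06), so the list moved in both directions. Of the female-predominant liver genes, 0 higher and 16 lower of 18 tested (median log2 -1.81) were called in WT females, and of the male-predominant genes, 0 higher and 13 lower of 15 tested (median log2 -1.90) in WT males. In the other sex the lists went both ways, with 3 higher and 2 lower of 12 tested (median log2 0.19) for the male-predominant genes in WT females and 3 higher and 3 lower of 12 tested (median log2 0.17) for the female-predominant genes in WT males. Without the TMM adjustment the male-predominant genes had 3 higher and 0 lower in WT females. The female-predominant genes then had 4 higher and 2 lower in WT males. The female list includes Sult3a1, which changed by log2 -8.73 (adjusted p 5.62e-12) in WT females, and Cyp2b9 and Cyp2b13. For growth hormone signalling the counts were 1 higher and 3 lower of 12 tested (median log2 -0.39) in WT females and 1 higher and 4 lower of 11 tested (median log2 -0.12) in WT males. Without the TMM adjustment the growth hormone counts were 2 higher and 2 lower in WT females and 3 higher and 3 lower in WT males.

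Acute phase and cytokine genes gave 10 higher and 3 lower of 17 tested (median log2 0.88) in WT females and 10 higher and 3 lower of 17 tested (median log2 0.78) in WT males. Without the TMM adjustment the acute phase counts were 11 higher and 0 lower in WT females and 12 higher and 2 lower in WT males. Pericentral hepatocyte genes gave 1 higher and 4 lower of 15 tested (median log2 -0.08) in WT females and 6 higher and 1 lower of 15 tested (median log2 0.25) in WT males. Without the TMM adjustment the pericentral counts were 3 higher and 1 lower in WT females and 7 higher and 1 lower in WT males. Periportal genes gave 0 higher and 13 lower of 14 tested (median log2 -1.07) in WT females and 2 higher and 10 lower of 14 tested (median log2 -0.84) in WT males. Without that adjustment the periportal counts were 0 higher and 9 lower in WT females and 2 higher and 8 lower in WT males. All these list counts stand beside 24.1% of all genes called in WT females and 33% in WT males. No list was tested as a set.

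For each member, the 3 genes outside the family with the most similar pattern were taken by Pearson r of mean log2 CPM over the 8 groups, among 13776 candidates, as a description. Cyp3a11 was most like Ugt3a1 (r 0.992), Spop (r 0.987), Ube2v2 (r 0.984). Cyp3a25 was nearest to Fetub (r 0.995), Serpina1a (r 0.995), Scnn1a (r 0.994). Cyp3a41a was nearest to Sult2a1 (r 0.992), Cyp2g1 (r 0.991), Sult2a5 (r 0.991), and Cyp3a16 to Got1 (r 0.981), Tsc22d3 (r 0.962), Cr1l (r 0.962). With Spearman rho, 7 of 8 members, all but Cyp3a11, shared 0 of these 3 genes, but their first 3 genes were all tied at a rho of 1, so this choice of genes is not firm.

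Promoter windows of the members were compared as text. The RefSeq promoter table (GRCm38.p6) held all 8 members, and the window is the 250 bases before the transcript start that it uses. In 6 of 8 members, all but Cyp3a11 and Cyp3a41a, the window reaches inside the outer bounds of the gene record, and that of Cyp3a13 lies wholly within them. Cyp3a41a and Cyp3a41b were 99.6% identical there, Cyp3a41a and Cyp3a44 94.4%, Cyp3a41a and Cyp3a16 91.4%, Cyp3a11 and Cyp3a41a 73.3%, and Cyp3a25 and Cyp3a59 95.6%. Of the motifs searched on both strands, the HNF4A motif CAAAGTCCA was in 4 of 8 members, Cyp3a11, Cyp3a16, Cyp3a41a and Cyp3a41b, and in 0.384% of 32851 windows. TATAAA was in 5 of 8 and 12.4% of windows, the half-site AGGTCA in 4 of 8 and 14%, and the half-site AGTTCA in 3 of 8 and 11.8%. Direct repeats of these half-sites with a spacer of 3 or 4 bases, everted repeats with 6, and the STAT5 motif TTCNNNGAA were in 0 of 8, and in 0.0122%, 0.0244%, 0.00913% and 7.02% of windows. Members whose windows are near copies, such as Cyp3a16, Cyp3a41a and Cyp3a41b, are counted separately here. The member counts are therefore not counts of independent windows. The windows of the member with the highest level, of 3 female-enriched members and of the pair Cyp3a25 and Cyp3a59 are printed 5′ to 3′ on the gene's strand, with matches to these motifs on either strand in capitals. They are Cyp3a11 at chr5:145879855-145880104, Cyp3a16 at chr5:145469724-145469973, Cyp3a41a at chr5:145720137-145720386, Cyp3a44 at chr5:145805875-145806124 and Cyp3a25 at chr5:146009618-146009867 on the minus strand, and Cyp3a59 at chr5:146079008-146079257 on the plus strand. A match is a run of letters and does not show that a factor binds.
Cyp3a11: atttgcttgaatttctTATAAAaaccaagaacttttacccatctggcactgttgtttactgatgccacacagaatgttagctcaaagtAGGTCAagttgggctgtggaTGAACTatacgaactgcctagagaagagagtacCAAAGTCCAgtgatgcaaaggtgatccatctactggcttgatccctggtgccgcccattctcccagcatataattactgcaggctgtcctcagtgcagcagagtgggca
Cyp3a16: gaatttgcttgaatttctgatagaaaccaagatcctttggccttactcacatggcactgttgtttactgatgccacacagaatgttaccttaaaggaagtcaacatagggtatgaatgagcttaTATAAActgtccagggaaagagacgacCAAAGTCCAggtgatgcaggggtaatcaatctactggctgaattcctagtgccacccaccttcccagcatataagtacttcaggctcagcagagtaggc
Cyp3a41a: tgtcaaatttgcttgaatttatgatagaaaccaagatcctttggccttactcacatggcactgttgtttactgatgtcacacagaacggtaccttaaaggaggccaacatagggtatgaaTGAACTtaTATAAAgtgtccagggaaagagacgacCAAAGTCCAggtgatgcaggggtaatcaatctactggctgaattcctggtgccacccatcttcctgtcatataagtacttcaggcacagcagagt
Cyp3a44: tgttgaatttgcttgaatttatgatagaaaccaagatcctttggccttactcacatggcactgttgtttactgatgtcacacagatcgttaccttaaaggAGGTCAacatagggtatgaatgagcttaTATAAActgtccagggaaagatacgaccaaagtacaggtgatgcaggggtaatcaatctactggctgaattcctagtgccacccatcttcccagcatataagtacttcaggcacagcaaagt
Cyp3a25: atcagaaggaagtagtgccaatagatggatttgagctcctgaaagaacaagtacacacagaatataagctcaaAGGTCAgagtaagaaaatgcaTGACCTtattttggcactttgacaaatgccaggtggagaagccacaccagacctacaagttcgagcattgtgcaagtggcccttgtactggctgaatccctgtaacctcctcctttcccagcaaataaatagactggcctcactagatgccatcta
Cyp3a59: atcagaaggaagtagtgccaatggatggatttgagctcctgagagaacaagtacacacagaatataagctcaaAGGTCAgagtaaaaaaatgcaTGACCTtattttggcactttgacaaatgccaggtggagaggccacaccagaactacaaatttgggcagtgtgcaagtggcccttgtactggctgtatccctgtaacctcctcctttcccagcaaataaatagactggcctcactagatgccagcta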

How the data were processed

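The authors' tables of raw counts, 1 for females and 1 for males, were read as deposited. Upstream, the authors trimmed with Trimmomatic after FastQC, aligned to GRCm38.p6 using GSNAP, then counted in featureCounts (Subread). Versions, strand and multi-mapping settings were not stated. All 32 columns with values matched a labelled library. Each table was fitted in edgeR 4.0.16 (R 4.3.3) with filterByExpr, TMM factors and the quasi-likelihood test over its 4 groups, and genes were called at an adjusted p under 0.05 (Benjamini-Hochberg). This tested 13226 genes in females and 13460 in males. Sex comparisons used 1 fit to all 8 groups, with 14020 genes. DESeq2 1.42.0 served as the other tool. Alternatives included fits with no low-count filter. In those fits the tool gave every gene the spread of the trend and not its own, so their p-values are not quoted. Replicate numbers state no pairing. Deviations from the group mean log2 CPM were correlated across genes between same-numbered libraries of different groups. The mean correlation was 0.00328 in females and 0.0195 in males, so the reported fits hold no replicate block. Single pairs ran from -0.110 to 0.177 in females and from -0.185 to 0.292 in males. The members and lists were chosen with earlier results of these data known. The rule for named genes took the members in every comparison, Nr1i2, Nr1i3, Rxra, Hnf4a, Por and Cyb5a, the 2 most abundant and 3 largest called genes of each list, and the 3 genes most like a member. The text prints a part of these, chosen after the results were seen: changes of called members, some changes of members not called, and a few genes per list. The age of the mice, the purchase of WT mice and the substrain come from the study's methods text.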

Additional observations from a re-analysis of the deposited data

Results flagged for a closer look

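In 11 of the 64 groups of 4 libraries (8 members in 8 groups), 1 library's gap to the nearest of the others took up more of the group's range than Dixon's limit allows. Chance alone marks about 1 in 20 groups, and members of a library are not independent of each other. Replicate 4 of the WT females on CDAHFD was high for 3 members, Cyp3a41a at 81.4 CPM, Cyp3a41b at 16.4 and Cyp3a44 at 24.2. Replicate 1 of that group was high for Cyp3a11 at 2953 CPM. Replicate 2 of the WT females on ND was high for Cyp3a44 at 126 CPM. For Cyp3a13, replicate 1 of the Cyp2b-null females on CDAHFD stood at 160 CPM and replicate 2 of the WT males on ND at 204. Replicate 4 of the WT males on CDAHFD was high for Cyp3a59 at 19.4 CPM.

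In males, Cyp3a41a stood out in replicate 2 of the Cyp2b-null mice on CDAHFD at 0.410 CPM, in replicate 4 of WT on CDAHFD at 0.175 and in replicate 3 of WT on ND at 0.539. These groups hold 0 to 4 counts per library, so a few reads decide such a gap.

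The diet change differed between WT females and WT males by an interaction test for Cyp3a16, log2 -4.47, and for Cyp3a59, log2 -1.52. Sex and table cannot be told apart in this difference. Neither was called with only these groups fitted (adjusted p 0.0540 and 0.0811), and 11 of 16 fits that left out 1 library did not call Cyp3a16. Cyp3a16 also passed the filter through females on ND, where it is high.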

How the results depend on the processing

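RLE size factors, a filter that asks 4 libraries for 1 CPM, and Cyp3a41a and Cyp3a41b summed left each count of members within 1.5 times the reported one. So did 1 fit to all 8 groups, which was planned for single members and extended to the counts after seeing the data. In the diet comparisons no called member changed direction under any setting. With library size only, Cyp3a13 in WT females reversed to log2 0.10 (adjusted p 0.692), and 6 called member changes no longer passed. These were Cyp3a11 in WT and Cyp2b-null females, Cyp3a13 in Cyp2b-null females and in both groups of males, and Cyp3a59 in WT males, which left 2 members called for diet in WT males. That setting moves the median of all genes up, to 0.37 there.

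With no low-count filter, the members called were 4 for genotype on ND in females, 1 for genotype on CDAHFD in females, 1 for diet by genotype in females, 4 for sex by diet in WT and 5 in Cyp2b-null mice. These higher counts are no stronger evidence. In that fit the prior degrees of freedom were infinite, so Cyp3a41a in females was given a spread of 0.755 although its own deviance per degree of freedom was 21.6. With the filter the spread used was 12.9.

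With only the groups compared, 0 members were called for genotype on ND in females, 0 for sex by diet in WT and 1 in Cyp2b-null mice. These fits have fewer libraries to estimate the spread. DESeq2 called 3 members for sex by diet in Cyp2b-null mice. The replicate block called 1 for sex on CDAHFD in WT and 5 for sex on ND in WT, where Cyp3a25 lost its call (adjusted p 0.122). The other 12 counts were as reported, and 44 of 47 member changes held their direction and call. In the block fit the sexes are compared at female replicate 1 and male replicate 4. Its sex differences on each diet are therefore not the mean sex differences. Without replicate 3 of the Cyp2b-null females and replicate 4 of the Cyp2b-null males on CDAHFD, 1 was called for sex by diet in WT. For the DESeq2, block and 2-library settings the cause was not tested.

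Leaving out each library in turn gave 0 to 2 members for sex by diet in WT and 0 to 1 in Cyp2b-null mice. It gave 7 to 7 for diet in WT females, 7 to 8 in Cyp2b-null females, 4 to 5 in WT males and 4 to 4 in Cyp2b-null males, and 1 to 1 for genotype on ND in females. The 5 was reached without replicate 1 of the WT males on CDAHFD. In that fit a further member, below the filter in the reported fit, was tested and called. For sex in WT mice, leaving out 1 library gave 5 to 6 on ND and 2 to 4 on CDAHFD, lowest without female replicate 4.

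The summed level on CDAHFD as a percent of ND was 58.3% in WT females, 65.4% in Cyp2b-null females, 68.6% in WT males and 44.6% in Cyp2b-null males with library size only. Without Cyp3a11 it was 20.04% in WT females, 31.6% in Cyp2b-null females, 45.3% in WT males and 33.7% in Cyp2b-null males. As a percent of the summed hepatocyte markers, chosen after seeing the data, it was 69.2%, 81.5%, 75.2% and 48.9% in the same order. On this scale the diet groups overlapped in Cyp2b-null females and in WT males. They did not overlap in WT females or in Cyp2b-null males.

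With library size only, called genes with diet were 2 regulators, 3 male-predominant genes and 2 intestine markers in WT females. The 3 male-predominant genes were all higher, against 3 higher and 2 lower as reported. In WT males the called genes were 6 regulators (3 higher and 3 lower, against 0 and 10 as reported) and 2 hepatocyte markers (1 higher and 1 lower, against 1 and 6). There were also 1 endothelial marker, 1 intestine marker and 0 pancreas markers (against 1 lower as reported). With no filter the called genes were 8 male-predominant genes and 2 intestine markers in WT females and 10 female-predominant genes in WT males. With Spearman rho over the 8 groups, 7 of 8 members shared 0 of their 3 most similar genes with the reported ones, and ties at a rho of 1 decide which 3 are listed.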
